A study of Homo sapiens with 39 samples.

Results

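The genes described here are 10 genes of G1 control in human C4-2B prostate cancer cells: the D cyclins CCND1, CCND2 and CCND3, their kinase partners CDK4 and CDK6, the inhibitors CDKN1B, CDKN1C, CDKN2C and CDKN2D, and RB1. They were chosen by name, from their known place in the pathway, out of 63187 genes in the table of read counts. Earlier results of these data were known when these genes were chosen. C4-2B is a castration-resistant line. All 39 libraries came from this line, grown in medium with serum, and were made in 2 experiments with 13 groups of 3 libraries. In the panel, cells were treated for 5 days with the solvent DMSO alone or with 1 of 4 drugs, which were olaparib at 1 µM, talazoparib at 10 nM, enzalutamide at 20 µM and abiraterone at 5 µM. The panel also held a combination of abiraterone with olaparib and a combination of enzalutamide with talazoparib, at the same doses. In the time course, cells were given DMSO, olaparib at 1 µM or olaparib at 5 µM for 1 day or 5 days. Abiraterone, which blocks androgen synthesis, and enzalutamide are called antiandrogens below, and olaparib and talazoparib are inhibitors of poly(ADP-ribose) polymerase (PARPi). The labels do not say that replicate libraries came from separate cultures, so the p-values measure only the spread between these libraries, which may be technical.

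D cyclins bind CDK4 or CDK6, and the active pair phosphorylates the retinoblastoma protein made from RB1. Unphosphorylated RB holds E2F transcription factors in check, and its phosphorylation lets a cell pass from G1 into S phase. Inhibitors of the INK4 family (CDKN2C, p18; CDKN2D, p19) bind CDK4 and CDK6 themselves, whereas those of the Cip/Kip family (CDKN1B, p27; CDKN1C, p57) bind cyclin and kinase together. In prostate cancer, loss of RB1 is known from advanced disease.

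Because CDKN2C is itself a known E2F-responsive gene and varied most over the 13 groups, its RefSeq promoter window was examined, with that of CDK6, which varied next most. Each window runs from 250 bases before to 50 bases after a transcription start in GRCh38.p14. RefSeq windows were found for 7 of the 10 genes, and none were held for CCND1, CCND2 and CDKN1C. The windows were searched on both strands for the E2F letters TTCCCGC and for 3 variants of them (the variant TTGGCGC, then the variant TTCGCGC and last the variant TTGCCGC), which stand in 4553 of 35116 promoters (13%). Of the 12 windows of these 7 genes, 1 held a match, at the CDKN2C start below, and the match is a description of letters, not a site shown to be bound. Capitals mark the matches, which begin 131 and 34 bases before the start, and the CDK6 window printed here held none:
CDKN2C, chr1:50968456-50968755, plus strand: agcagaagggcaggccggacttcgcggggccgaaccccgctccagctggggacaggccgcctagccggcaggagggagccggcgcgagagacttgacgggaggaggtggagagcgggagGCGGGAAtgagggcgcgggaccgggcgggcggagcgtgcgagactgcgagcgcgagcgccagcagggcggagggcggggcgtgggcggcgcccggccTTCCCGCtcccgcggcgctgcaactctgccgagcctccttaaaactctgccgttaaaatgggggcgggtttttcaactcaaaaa
CDK6, chr7:92836524-92836823, minus strand: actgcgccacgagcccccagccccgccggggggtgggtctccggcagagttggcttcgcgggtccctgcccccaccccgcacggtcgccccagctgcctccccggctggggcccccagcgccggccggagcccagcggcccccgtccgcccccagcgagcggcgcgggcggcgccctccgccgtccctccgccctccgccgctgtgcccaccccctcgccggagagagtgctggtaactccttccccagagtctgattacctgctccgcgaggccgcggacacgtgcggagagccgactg
The letters CCAAT, read on either strand, stand in 34.6% of promoters. They occurred 3 times in the CDKN1B window, and once each in the CDKN2D window, in a CDKN2C window at another start and in 2 of the 3 CCND3 windows. The letters TTTGAA or their variant TTCGAA (16.4% of promoters) were in none of the 12 windows, and TGTTCT (14.8% of promoters) was in 1, an RB1 window at chr13:48476200-48476499. This only RB1 window lies inside the annotated gene, so that the letters at the 5′ end of RB1 were not searched. The CDKN2C window printed above and the windows of CCND3, CDKN1B and CDK4 also lie inside the outermost annotated ends of their genes. The same holds for the CDKN2C window with CCAAT (chr1:50969995-50970294) and for a CDK6 window not printed here (chr7:92833910-92834209).

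The totals of counts per library lay between 26932205 and 49833473 in the panel and between 34214001 and 44893664 in the time course. Luminal prostate markers were detected in all 39 libraries, with KLK3 from 289 to 1902 CPM (counts per 1000000 counts of a library), HOXB13 from 156 to 296 CPM, TMPRSS2 from 35 to 458 CPM and KLK2 lowest, from 13.9 to 179 CPM. Of the 12 markers of other cell types, KRT5, TP63, CD3E, PECAM1, COL1A2 and DCN stayed at or below 0.107 CPM, and CD14 (up to 0.144 CPM), CDH5 (0.326), PTPRC (1.17) and KRT14 (1.91) were low. COL1A1 (stromal, 10.5 to 22.1 CPM) and VWF (endothelial, 7.48 to 22.5 CPM) reached the lowest levels of KLK2, and their part in the results was not tested. KLK3, an androgen-regulated gene, stood at 33.5% ± 1.47 (SD, n = 3) of DMSO with abiraterone and 21% ± 1.49 with enzalutamide.

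Levels in control cells differed widely among the members. To compare genes with each other, CPM scaled by edgeR's TMM method was divided by the length of all exons of a gene in kilobases. On this scale of CPM per kilobase, CCND1 (chr11:69641156-69654474, plus strand) and CDK4 (chr12:57747727-57756013, minus strand) led in the panel's DMSO libraries, at 44.8 and 40.0. RB1 (chr13:48303744-48599436, plus strand) followed at 11.7, CDKN2C (chr1:50960745-50974634, plus strand) at 7.74, CCND3 (chr6:41934934-42050357, minus strand) at 7.03 and CDKN1B (chr12:12685498-12722369, plus strand) at 5.98. CDKN2D (chr19:10566460-10569059, minus strand) stood at 3.92, CDK6 (chr7:92604921-92836573, minus strand) at 0.864 and CDKN1C (chr11:2883213-2885775, minus strand) at 0.538. With the length of the longest transcript instead, CDK4 (66.3) stood above CCND1 (50.3), CCND3 (16.9) above RB1 (15.7) and CDKN1B (12.8) above CDKN2C (8.04), so the order of these pairs depends on the length used. These gene positions are on GRCh38.

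CCND2 (chr12:4269771-4305353, plus strand) was close to the limit of detection in every group. It had 0 to 7 counts per library, with 0 in 3 libraries, which allows up to 0.0781 CPM there at a limit of 3 counts. It did not pass the filter on low counts, so that 9 of the 10 members are tested below. With no filter CCND2 was called in 1 of 19 comparisons, and DESeq2 called it in 0 and gave it no adjusted p in 10. CCND1 therefore made up most of the D cyclin transcripts per length, between 82.9% and 90.6% in the group means, and CCND3 the rest. With the longest transcript as length the CCND1 share was lower, between 69.4% and 81.9% in the group means. Such shares cover the RNA of whole cultures, where fewer cells of one kind and less RNA per cell cannot be told apart.

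**Figure D1:**
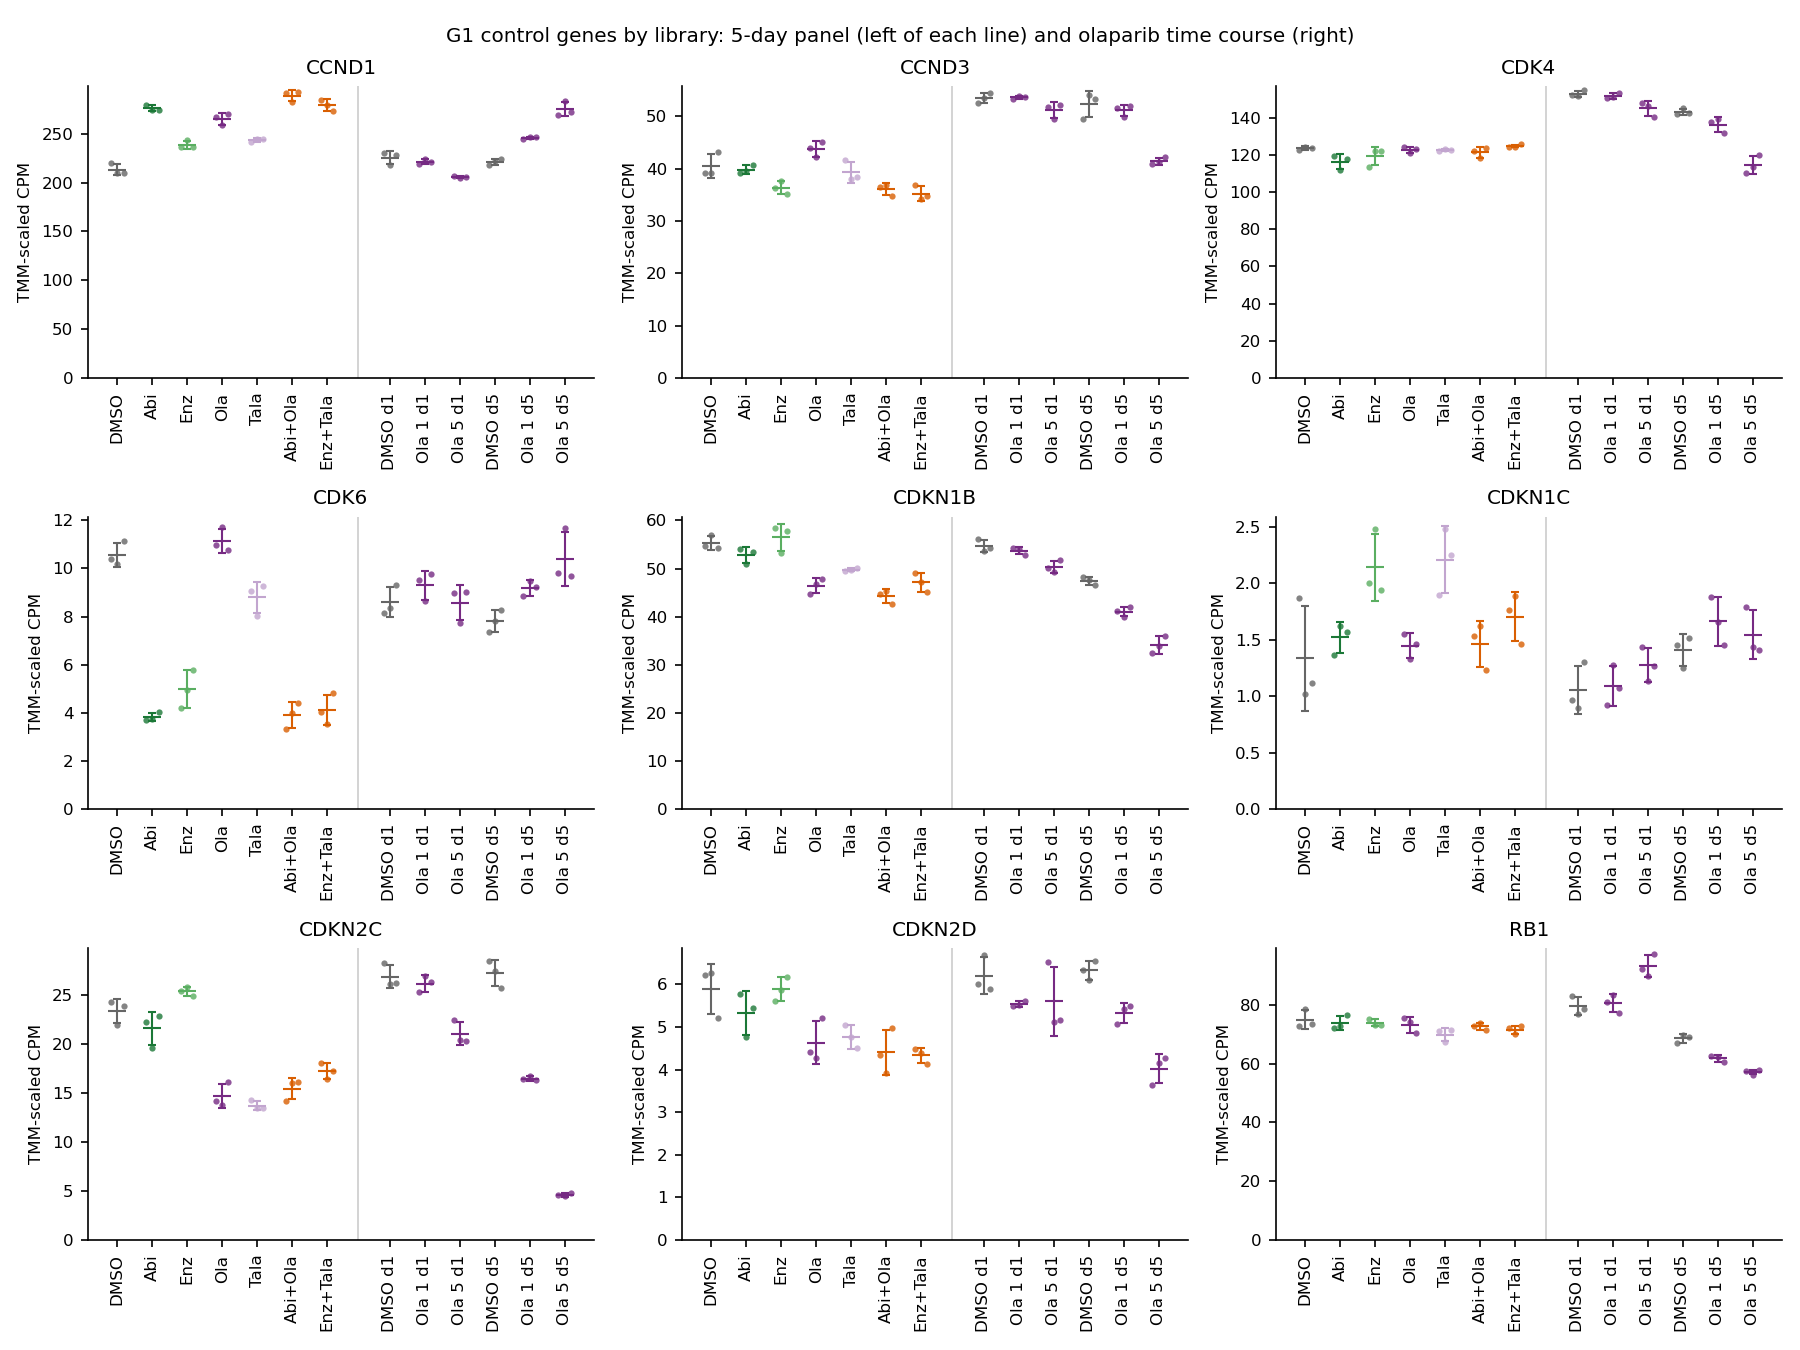
TMM-scaled CPM (y axis, from 0) of the 9 tested genes in each of the 39 libraries (points), with the mean and SD of each group of 3; Ola 1 and Ola 5 are olaparib at 1 and 5 µM, and d1 and d5 are days 1 and 5. CDK6 is lowest in the 4 panel groups with an antiandrogen, between 3.32 and 5.79 CPM, and CDKN2C is lowest with olaparib at 5 µM on day 5, between 4.43 and 4.75 CPM.

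The order of the groups is given for the pair of members with the widest range. In the time course the group means of CDKN2C ran from 27.2 CPM (DMSO, day 5), 26.8 (DMSO, day 1) and 26.1 (1 µM, day 1), whose libraries overlapped, through 21 (5 µM, day 1) and 16.5 (1 µM, day 5) to 4.57 CPM (5 µM, day 5), each apart from its neighbours. In the panel they ran from 25.3 CPM with enzalutamide through DMSO (23.3) and abiraterone (21.6), which overlapped, to the combinations (17.3 with talazoparib and 15.4 with olaparib) and the PARPi alone (14.7 with olaparib and 13.7 with talazoparib), where neighbours below the talazoparib combination overlapped. CDK6 fell into 3 sets in the panel. Olaparib and DMSO overlapped at 11.2 and 10.6 CPM, talazoparib alone stood at 8.79 CPM, and the 4 antiandrogen groups lay between 3.82 and 4.98 CPM. Each of these 4 groups overlapped the next one in the order, but all libraries with enzalutamide alone lay above those with abiraterone alone. In the time course each CDK6 group overlapped the next one in the order. Over the 13 groups, centred on the DMSO groups, the means of CDKN2C spanned 2.68 on the log2 scale, those of CDK6 1.86 and those of CDKN1C 0.75, and those of the other 6 tested members between 0.34 (CDK4) and 0.65 (CDKN2D).

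The first question of the panel is what each drug alone did after 5 days. With the antiandrogens the leading member was CDK6, the less abundant of the 2 kinases. CDK6 stood at 10.4, 10.2 and 11.1 CPM in the DMSO libraries, at 3.69, 3.75 and 4.03 CPM with abiraterone, and at 4.2, 4.95 and 5.79 CPM with enzalutamide. All 6 antiandrogen libraries lay well below the 3 DMSO libraries. CDK6 fell by 1.47 on the log2 scale with abiraterone (SE 0.115, adjusted p = 3.5e-13 in edgeR's quasi-likelihood test) and by 1.08 with enzalutamide (SE 0.110, adjusted p = 2.24e-10). CDK4 moved far less: its libraries lay between 112 and 119 CPM with abiraterone and between 123 and 124 CPM with DMSO, a log2 difference of -0.09 (adjusted p = 0.0184). This call for CDK4 was lost without DMSO library B (-0.08, adjusted p = 0.0527), without abiraterone library B (-0.06, adjusted p = 0.138), when libraries were scaled by total counts (-0.02, adjusted p = 0.672), with no filter on low counts (-0.07, adjusted p = 0.152) and in a fit of these groups alone (-0.07, adjusted p = 0.0732). The share of CDK6 in the length-scaled sum of CDK4 and CDK6 was 2.12% ± 0.10 (SD, n = 3) with DMSO, 0.824% ± 0.0437 with abiraterone and 1.04% ± 0.132 with enzalutamide. With the length of the longest transcript these CDK6 shares were 1.35%, 0.523% and 0.662%, in the same order.

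CCND1, the main D cyclin, moved the other way with the antiandrogens. Its DMSO libraries held 220, 210 and 210 CPM, those with abiraterone 280, 275 and 274 CPM, and those with enzalutamide 236, 244 and 236 CPM. The groups did not overlap. CCND1 rose by a log2 fold change of 0.37 with abiraterone (SE 0.0260, adjusted p = 1.38e-14) and of 0.16 with enzalutamide (SE 0.0260, adjusted p = 2.11e-06). CCND3 fell with enzalutamide (-0.16, SE 0.0471, adjusted p = 0.00523), a call that was lost without DMSO library C (-0.11, adjusted p = 0.0792) and with total count scaling (-0.10, adjusted p = 0.0691). With abiraterone CCND3 differed from DMSO by -0.03 (95% interval -0.12 to 0.07).

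Among the inhibitors, CDKN1C rose with enzalutamide and the other 3 did not pass the test with either antiandrogen. CDKN1C is an imprinted gene of the p57 inhibitor and was scarce here, with 34 to 106 counts per library over both experiments. Its libraries held 1.87, 1.02 and 1.11 CPM with DMSO and 2.00, 2.48 and 1.94 CPM with enzalutamide, a log2 fold change of 0.70 (SE 0.204, adjusted p = 0.00406). DMSO library A stood well above the other DMSO libraries and close to the lowest one with enzalutamide. With abiraterone CDKN1C differed from DMSO by 0.20 (between 0.04 and 0.50 over the alternatives) and was not called in any of them. CDKN2C differed from DMSO by -0.11 with abiraterone (95% interval -0.24 to 0.01, and -0.05 without abiraterone library B) and by 0.12 with enzalutamide (-0.01 to 0.24), which passed with total count scaling (0.17, adjusted p = 0.0262) and was 0.07 without DMSO library B. CDKN1B and CDKN2D differed by between -0.14 and 0.03 with either antiandrogen, and RB1 by -0.02 with each. Over the alternatives with abiraterone CDKN2D lay between -0.23 and -0.07 and RB1 between -0.04 and 0.05, and neither was called. In all, 3 of 9 tested members passed the threshold with abiraterone, where 52.9% of all 18625 genes tested did, and 4 of 9 with enzalutamide, where 53.3% did. Neither share of members was above that of all genes.

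With the PARPi alone CDKN2C changed most, closely followed with talazoparib by a rise of CDKN1C (0.74). CDK6 did not fall to the levels seen with the antiandrogens. CDKN2C held 24.2, 21.9 and 23.9 CPM with DMSO, 14.2, 13.8 and 16.1 CPM with olaparib, and 14.2, 13.4 and 13.4 CPM with talazoparib. All 6 PARPi libraries were below all DMSO libraries. CDKN2C fell by 0.67 on the log2 scale with olaparib (SE 0.0669, adjusted p = 4.62e-10) and by 0.77 with talazoparib (SE 0.0666, adjusted p = 2.31e-11). CDKN1B, the p27 inhibitor, held 54.7, 56.9 and 54.3 CPM with DMSO, 44.7, 46.9 and 47.8 CPM with olaparib, and 49.6, 49.6 and 50.2 CPM with talazoparib. Again no PARPi library reached the DMSO range. The log2 fold changes of CDKN1B were -0.25 (SE 0.0421, adjusted p = 9.05e-06) and -0.15 (SE 0.0415, adjusted p = 0.00424).

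The related INK4 gene CDKN2D was lower in both, with a log2 fold change of -0.34 with olaparib (SE 0.114, adjusted p = 0.0163) and of -0.30 with talazoparib (SE 0.113, adjusted p = 0.0339), at 4.26 to 5.21 CPM and 4.49 to 5.05 CPM against 5.22 to 6.26 CPM with DMSO. Neither call of CDKN2D held in every setting. The call with olaparib was lost without DMSO library A or B or olaparib library A or B, with adjusted p between 0.0563 (olaparib library A, -0.33) and 0.0827 (DMSO library B, -0.30). The call with talazoparib was lost without DMSO library A or B or talazoparib library B or C, with adjusted p between 0.0666 (talazoparib library B, -0.32) and 0.141 (DMSO library B, -0.26), and also with no filter on low counts (-0.30, adjusted p = 0.0943).

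CCND1 rose with the PARPi too, to 267, 258 and 270 CPM with olaparib (log2 fold change 0.31, SE 0.0260, adjusted p = 5.51e-12) and to 242, 245 and 244 CPM with talazoparib (0.19, SE 0.0259, adjusted p = 2.72e-07). CDKN1C held 1.55, 1.33 and 1.46 CPM with olaparib, within the DMSO range, and 1.89, 2.48 and 2.25 CPM with talazoparib, just above it. The log2 fold change of CDKN1C was 0.13 with olaparib (95% interval -0.28 to 0.55, and between -0.02 without DMSO library B and 0.44 without DMSO library A) and 0.74 with talazoparib (SE 0.203, adjusted p = 0.00407). CDK6 differed by 0.08 with olaparib (-0.13 to 0.28) and fell by 0.27 with talazoparib (SE 0.104, adjusted p = 0.0461), to 9.07, 8.04 and 9.26 CPM. The talazoparib call of CDK6 was lost without any single DMSO library and without talazoparib library B, with adjusted p between 0.0612 (DMSO library B, -0.29) and 0.163 (talazoparib library B, -0.22, and DMSO library C, -0.23), and with no filter on low counts (-0.26, adjusted p = 0.0549). RB1 was lower with talazoparib (-0.10, SE 0.0364, adjusted p = 0.0287), a call lost without DMSO library B (-0.07, adjusted p = 0.225) or talazoparib library B (-0.09, adjusted p = 0.0959) and with no filter on low counts (-0.09, adjusted p = 0.10). CDK4 and CCND3 did not pass the test with either drug, except that CCND3 was called higher with olaparib without DMSO library C (0.16, adjusted p = 0.0129, against 0.11 and 0.0643 with all libraries and 0.07 without olaparib library C).

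In all, 4 of 9 members passed with olaparib (1 higher, 3 lower) where 35.6% of all genes did, and 7 of 9 with talazoparib (2 higher, 5 lower) where 33.8% did. The count with talazoparib was 4 without DMSO library B, without talazoparib library B, or with no filter on low counts. Olaparib was given at 1 µM and talazoparib at 10 nM, and since the doses differ, their values stand side by side without a test between them. The same holds for abiraterone at 5 µM and enzalutamide at 20 µM.

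**Figure D2:**
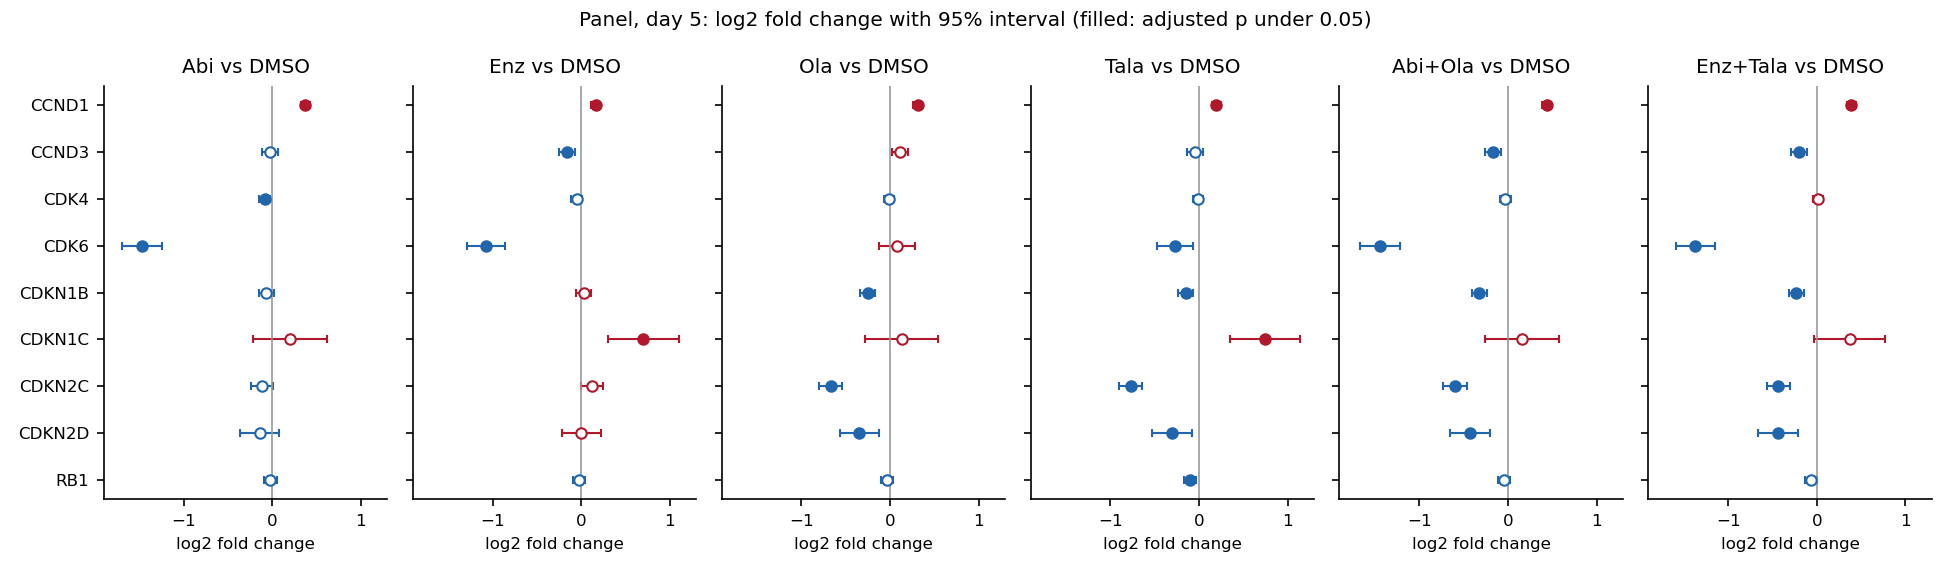
Log2 fold change against DMSO after 5 days (x axis) of 9 genes (rows) in the 6 treatments of the panel, with 95% intervals; filled points have an adjusted p under 0.05, and red and blue stand for higher and lower. CCND1 is higher in all 6 treatments (0.16 to 0.44), CDK6 lies at or below -1.08 with each treatment that holds an antiandrogen, and CDKN2C lies between -0.77 and -0.43 with each that holds a PARPi.

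The second question of the panel is how the combinations compare with DMSO and with the antiandrogen alone. The combinations carried the marks of both classes: CDK6 was as low as with an antiandrogen, and CDKN2C, CDKN1B and CDKN2D were lower than DMSO as with a PARPi. CDK6 held 3.32, 3.97 and 4.42 CPM with abiraterone plus olaparib, and it held 4.02, 3.54 and 4.80 CPM with enzalutamide plus talazoparib, with log2 fold changes against DMSO of -1.44 (SE 0.116, adjusted p = 3.56e-13) and -1.37 (SE 0.112, adjusted p = 5.48e-13). CDKN2C held 14.2, 16.0 and 16.1 CPM and 18.1, 16.4 and 17.2 CPM, with log2 fold changes of -0.60 (SE 0.0675, adjusted p = 1.41e-09) and -0.43 (SE 0.0648, adjusted p = 4.22e-07). No combination library reached the DMSO range for either gene. CDKN1B was lower by 0.32 and 0.23, CDKN2D by 0.42 and 0.44, and CCND3 by 0.17 and 0.20 on the log2 scale in the 2 combinations, and CCND1 was higher by 0.44 and 0.39, all past the threshold with adjusted p of 0.00292 or less. CDK4, CDKN1C and RB1 did not pass the test against DMSO in either combination, except that CDKN1C was called higher with enzalutamide plus talazoparib without DMSO library A (0.67, adjusted p = 0.00723, against 0.37 and 0.114 with all libraries and 0.21 without DMSO library B). In each combination 6 of 9 members passed (1 higher, 5 lower), where 62.2% of all genes did in the combination with olaparib and 62.4% in that with talazoparib, shares close to that of the members.

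Against the antiandrogen alone, adding the PARPi lowered CDKN2C and CDKN1B. With olaparib added to abiraterone, CDKN2C went from 22.3, 19.6 and 22.8 CPM to 14.2, 16.0 and 16.1 CPM (log2 fold change -0.48, SE 0.0682, adjusted p = 9.11e-07), and CDKN1B from 54.2, 50.9 and 53.4 CPM to 44.7, 45.4 and 42.5 CPM (-0.25, SE 0.0431, adjusted p = 1.82e-05). With talazoparib added to enzalutamide, CDKN2C went from 25.4, 25.8 and 24.8 CPM to 18.1, 16.4 and 17.2 CPM (-0.55, SE 0.0638, adjusted p = 1.44e-08), and CDKN1B from 58.5, 53.2 and 57.7 CPM to 49.0, 47.3 and 45 CPM (-0.26, SE 0.0412, adjusted p = 5.99e-06). No library of a combination overlapped the antiandrogen alone for these genes. CCND1 rose further over enzalutamide (0.23, SE 0.0257, adjusted p = 1.02e-08), and its difference from abiraterone was 0.06 (95% interval 0.01 to 0.12, adjusted p = 0.0562), which passed without DMSO library A (adjusted p = 0.0475) or without combination library B (0.08, adjusted p = 0.0418) and in DESeq2 (adjusted p = 0.0488).

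CDKN2D fell against enzalutamide (-0.44, SE 0.112, adjusted p = 0.00215). Against abiraterone it differed by -0.28 (adjusted p = 0.0657) and passed without abiraterone library B (-0.36, adjusted p = 0.0378) or combination library C (-0.37, adjusted p = 0.0315) and with total count scaling (-0.31, adjusted p = 0.0434). CCND3 was lower than with abiraterone alone (-0.14, SE 0.0482, adjusted p = 0.0263), a call lost without abiraterone library C (-0.13, adjusted p = 0.0815) or combination library C (-0.12, adjusted p = 0.114). CDK6 differed from enzalutamide by -0.29 (adjusted p = 0.0507), and passed without enzalutamide library A (-0.39, adjusted p = 0.0135), without combination library C (-0.39, adjusted p = 0.0167), and, by small margins, without abiraterone library A (adjusted p = 0.0496) or library C of abiraterone plus olaparib (adjusted p = 0.0467). It passed with total count scaling (adjusted p = 0.0413) and in DESeq2 (adjusted p = 0.0480) too, but without enzalutamide library C it was -0.17 (adjusted p = 0.352) and without combination library B -0.18 (adjusted p = 0.300). Against abiraterone CDK6 differed by 0.03 (95% interval -0.22 to 0.28). Of the 9 members, 3 passed for olaparib added to abiraterone (all lower; 29.2% of all genes did) and 4 for talazoparib added to enzalutamide (1 higher, 3 lower; 34.4% of all genes did).

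An interaction term tested whether a combination departed from the sum of its drugs on the log2 scale. For CCND1 the single effects of abiraterone (0.37) and olaparib (0.31) sum to 0.69, and the combination showed 0.44, a departure of -0.25 (SE 0.0366, adjusted p = 1.11e-05). CCND3 also fell short of its sum of 0.08, at -0.17, by -0.25 (SE 0.0669, adjusted p = 0.0103). These were 2 of 9 members, against 12.8% of all genes. In the other combination CCND1 reached 0.39 against a sum of 0.35, a departure of 0.03 (95% interval -0.04 to 0.10). Only CDKN1C passed there, with single effects of 0.70 and 0.74, a combination of 0.37 and a departure of -1.07 (SE 0.282, adjusted p = 0.00936), which is 1 of 9 members against 12.6% of all genes. CDK6 departed from its sums by -0.05 (-0.37 to 0.27) and -0.03 (-0.33 to 0.28), and CDKN2C by 0.19 (-0.00 to 0.37) and 0.22 (0.04 to 0.40, adjusted p = 0.124).

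The time course asked how the response to olaparib depended on dose and duration. On day 1 at 1 µM, none of the 9 tested members passed the threshold in edgeR's quasi-likelihood test, where 15.8% of all 18502 genes did, 0 had an unadjusted p under 0.05, and DESeq2 called 0. At 5 µM on day 1, 5 of 9 passed (1 higher, 4 lower), where 45% of all genes did. RB1, the gatekeeper of S phase entry, rose from 83.1, 77.1 and 78.7 CPM with DMSO to 92.3, 89.8 and 97.3 CPM (log2 fold change 0.23, SE 0.0322, adjusted p = 2.49e-07). CDKN2C fell from 28.2, 26.1 and 26.2 CPM to 22.4, 20.4 and 20.3 CPM (-0.35, SE 0.0478, adjusted p = 1.34e-07). For both genes the groups did not overlap.

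CCND1 was lower on day 1 at 5 µM, at 207, 204 and 206 CPM against 231, 218 and 228 CPM with DMSO (-0.13, SE 0.0232, adjusted p = 1.08e-05). Over the alternatives its value lay between -0.16 and -0.08 and stayed called. CDKN1B (-0.12, adjusted p = 0.00327) and CDK4 (-0.08, adjusted p = 0.0224) were lower by small margins. With total count scaling both lost their calls (CDKN1B -0.07, adjusted p = 0.0729; CDK4 -0.03, adjusted p = 0.424), which left 3 of 9 members. CDK4 also lost its call without day 1 DMSO library 3 (-0.07, adjusted p = 0.0846) or library 3 at 5 µM (-0.06, adjusted p = 0.131) and with no filter on low counts (-0.07, adjusted p = 0.0705). CDKN2D differed by -0.15 (95% interval -0.33 to 0.04) and was called lower without library 1 at 5 µM (-0.27, adjusted p = 0.0276), the highest of its group, while without day 1 DMSO library 2 or library 2 or 3 at 5 µM it was between -0.08 and -0.09.

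By day 5 CDKN2C showed the widest change of any member. It held 28.4, 27.5 and 25.7 CPM with DMSO, 16.4, 16.7 and 16.3 CPM at 1 µM, and 4.54, 4.43 and 4.75 CPM at 5 µM. The 3 groups were fully apart, and the libraries at 5 µM stood at 16.8% ± 0.60 (SD, n = 3) of DMSO. CDKN2C fell by 0.73 on the log2 scale at 1 µM (SE 0.0494, adjusted p = 4.79e-15) and showed a log2 fold change of -2.57 at 5 µM (SE 0.0629, adjusted p = 1.75e-29). CDKN2D fell as well, from 6.35, 6.09 and 6.54 CPM to 5.07, 5.42 and 5.5 CPM and to 3.64, 4.15 and 4.28 CPM, with log2 fold changes of -0.25 (SE 0.0957, adjusted p = 0.0324) and -0.65 (SE 0.0992, adjusted p = 3.67e-07). The call of CDKN2D at 1 µM was lost without day 5 DMSO library 1 or 3 or library 1 or 2 at 1 µM, with adjusted p between 0.0560 (library 2 at 1 µM, -0.26) and 0.112 (library 1 at 1 µM, -0.21), as well as in DESeq2 (adjusted p = 0.0592) and with no filter on low counts (adjusted p = 0.0556). As CDKN2C fell further than CDKN2D, its share of their length-scaled sum went from 68.2% ± 1.66 (SD, n = 3) with DMSO to 60.6% ± 1.06 at 1 µM and 36.2% ± 1.86 at 5 µM.

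CDKN1B followed the same order on day 5, with 48.2, 47.6 and 46.6 CPM in DMSO, 41.2, 40.0 and 41.9 CPM at 1 µM and 32.5, 33.8 and 36.0 CPM at 5 µM. Its groups were apart as well, with log2 fold changes of -0.21 (SE 0.0342, adjusted p = 2.83e-06) and -0.48 (SE 0.0353, adjusted p = 1.07e-14). CDKN1C differed by 0.24 (95% interval -0.12 to 0.59) and 0.13 (-0.23 to 0.49), and its libraries overlapped in all 3 groups. Without library 1 of the treated group these CDKN1C values were 0.14 and 0.02, and without its library 3 they were 0.33 and 0.20. RB1, which was higher at 5 µM and at 0.02 with 1 µM on day 1, was lower at both doses on day 5, at 66.9, 69.9 and 68.9 CPM in DMSO, 62.5, 62.3 and 60.5 CPM at 1 µM and 57.5, 56.3 and 57.7 CPM at 5 µM. Its log2 fold changes were -0.15 (SE 0.0337, adjusted p = 0.000324) and -0.26 (SE 0.0340, adjusted p = 1.53e-08).

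CCND1, which was lower at 5 µM and at -0.03 with 1 µM on day 1, was higher at both doses on day 5, with 218, 222 and 224 CPM in DMSO, 244, 246 and 246 CPM at 1 µM and 269, 283 and 273 CPM at 5 µM. Its log2 fold changes were 0.15 (SE 0.0230, adjusted p = 9.21e-07) and 0.31 (SE 0.0230, adjusted p = 8.77e-15). CDK6 rose to 8.85, 9.49 and 9.21 CPM and to 9.80, 11.7 and 9.68 CPM from 7.36, 7.83 and 8.29 CPM (0.23, adjusted p = 0.0161, and 0.41, SE 0.0793, adjusted p = 2.15e-05). The CDK6 call at 1 µM was lost without day 5 DMSO library 1 (0.19, adjusted p = 0.0984) or library 2 at 1 µM (0.21, adjusted p = 0.0640). At 5 µM CCND3 fell to 40.9, 41.3 and 42.2 CPM from 49.5, 54.1 and 53.2 CPM (-0.33, SE 0.0336, adjusted p = 4.51e-11), and CDK4 to 111, 114 and 120 CPM from 142, 145 and 143 CPM (-0.32, SE 0.0282, adjusted p = 1.22e-12). At 1 µM CDK4 was lower by 0.07 (adjusted p = 0.0341), a call lost without day 5 DMSO library 2 (-0.06, adjusted p = 0.113) or 3 (-0.07, adjusted p = 0.0554) or library 3 at 1 µM (-0.05, adjusted p = 0.216) and with no filter on low counts (adjusted p = 0.0898), and CCND3 differed by -0.03 (-0.09 to 0.03).

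On day 5, 7 of 9 members passed at 1 µM (2 higher, 5 lower), where 46.3% of all genes did, and 8 of 9 at 5 µM (2 higher, 6 lower), where 68.2% did. The median log2 fold change at 5 µM was -0.32 over the 9 members and -0.01 over all genes tested. Olaparib at 1 µM for 5 days was given in both experiments, each with its own DMSO. CDKN2C (-0.67 in the panel and -0.73 in the time course), CDKN1B (-0.25 and -0.21), CDKN2D (-0.34 and -0.25) and CCND1 (0.31 and 0.15) passed the threshold in the same direction in both, while CDK4, CDK6 and RB1 passed in the time course and not in the panel. Whether these effects differ between the experiments was not tested.

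**Figure D3:**
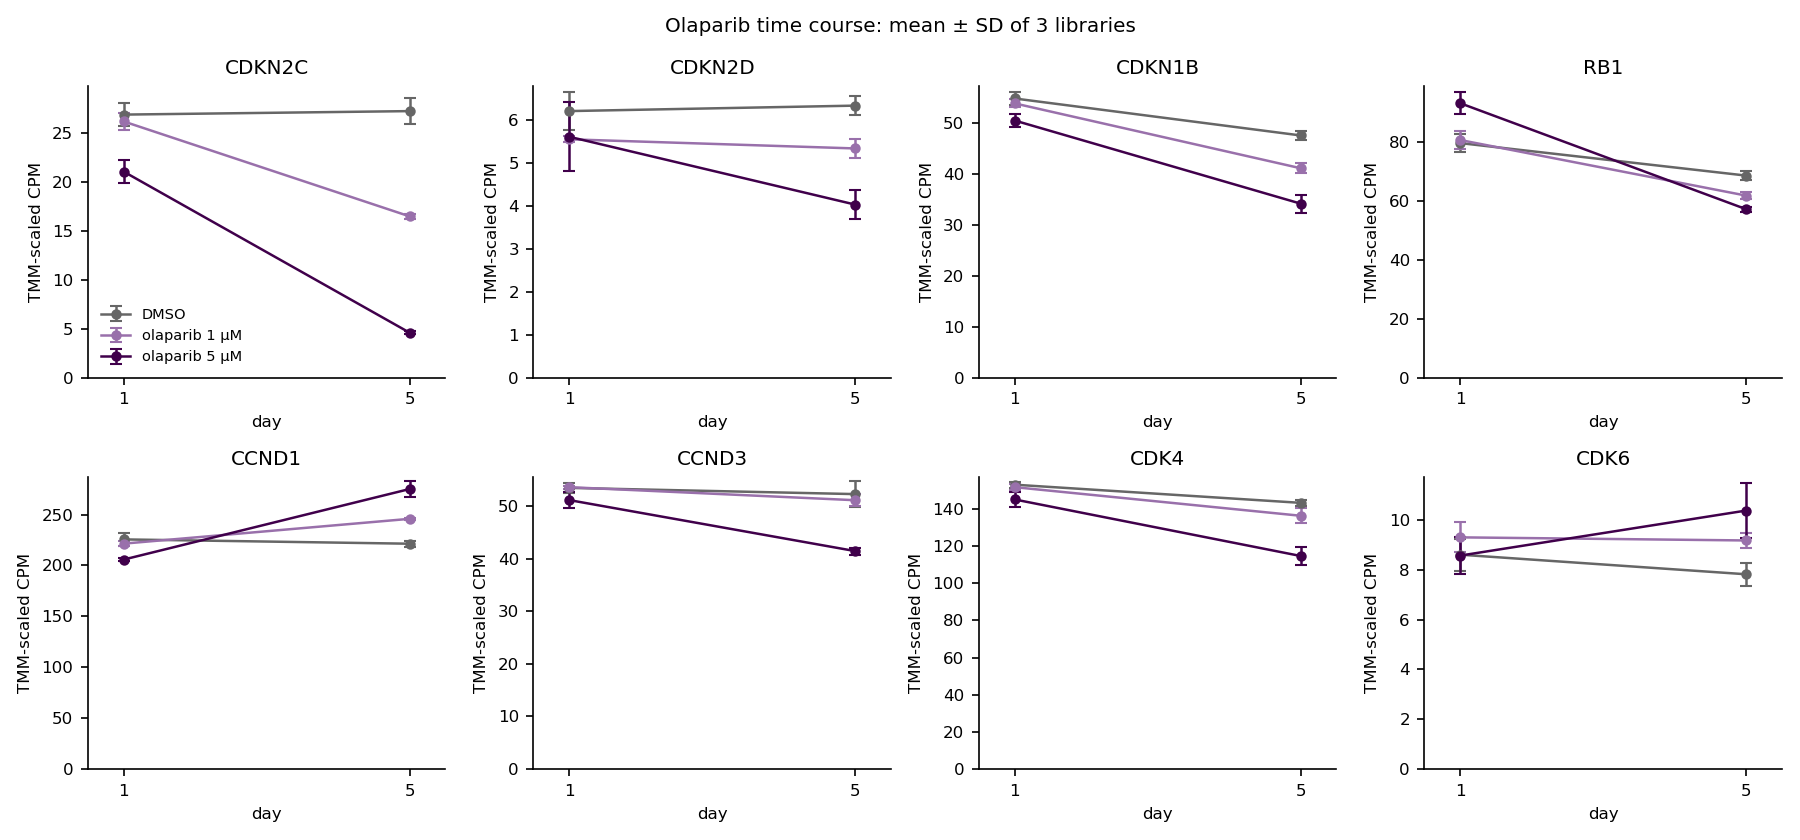
TMM-scaled CPM (y axis, from 0) of 8 genes on days 1 and 5 of the time course (x axis), as the mean ± SD of 3 libraries with DMSO, olaparib at 1 µM and olaparib at 5 µM. At 5 µM CDKN2C goes from 21 on day 1 to 4.57 on day 5, while CCND1 goes from 206 to 275.

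The doses were also compared with each other. On day 1, 4 of 9 members differed between 5 and 1 µM, where 28.8% of all genes did: RB1 was higher at 5 µM (0.21, SE 0.0320, adjusted p = 2.81e-06), and CDKN2C (-0.31, SE 0.0477, adjusted p = 2.27e-06), CCND1 (-0.11, adjusted p = 0.000471) and CDKN1B (-0.09, adjusted p = 0.0297) were lower. The call for CDKN1B was lost without any of 4 single libraries, namely 1 or 2 at 1 µM and 1 or 2 at 5 µM, with values from -0.08 (adjusted p = 0.132, library 2 at 5 µM) to -0.09 (adjusted p = 0.0780, library 2 at 1 µM), and also with total count scaling (-0.07, adjusted p = 0.0967) and with no filter on low counts (adjusted p = 0.0516). CDK4 differed by -0.06 (adjusted p = 0.0809) and passed in DESeq2 (-0.07, adjusted p = 0.0371), which so called 5 of 9. On day 5, 7 of 9 differed, where 53.6% of all genes did. CDKN2C was lower at 5 µM by 1.85 (SE 0.0687, adjusted p = 3.37e-23), CDKN2D by 0.41, CCND3 by 0.30, CDKN1B by 0.27, CDK4 by 0.25 and RB1 by 0.11 on the log2 scale, and CCND1 was higher by 0.16. Over the alternatives CCND1 lay between 0.10 and 0.19 and RB1 between -0.17 and -0.09, and both stayed called. CDK6 differed by 0.18 (95% interval 0.02 to 0.33, adjusted p = 0.0557) and passed without library 1 (0.23, adjusted p = 0.0311) or 3 (0.23, adjusted p = 0.0241) of day 5 at 5 µM and, with adjusted p = 0.0499, without library 2 of day 1 at 5 µM. It also passed with RLE scaling (adjusted p = 0.0492), but without library 2 of day 5 at 5 µM it was 0.09 (adjusted p = 0.375).

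Time in culture alone moved 3 of 9 members between the DMSO libraries of days 1 and 5, where 24.5% of all genes passed. RB1 was lower on day 5 (-0.22, SE 0.0328, adjusted p = 4.61e-06), as were CDKN1B (-0.20, SE 0.0328, adjusted p = 1.05e-05) and CDK4 (-0.10, SE 0.0277, adjusted p = 0.00972). The call for CDK4 was lost without day 1 DMSO library 3 (-0.09, adjusted p = 0.0503), and without the same library CDKN1C was called higher on day 5 (0.60, adjusted p = 0.0401, against 0.42 and 0.106 with all libraries). CDKN2C differed by 0.02 (-0.07 to 0.11) between the days. Whether an olaparib effect differed between day 5 and day 1 was tested with interaction terms, which 4 of 9 members passed at 1 µM (29.8% of all genes did; with total count scaling CDK4 passed too, at -0.11 with adjusted p = 0.0326, against -0.06 and 0.287) and 8 of 9 at 5 µM (54.9% did). The widest was that of CDKN2C at 5 µM, at -2.22 (SE 0.0814, adjusted p = 2.11e-23), and RB1 (-0.49, SE 0.0469) and CCND1 (0.45, SE 0.0327) changed the sign of their 5 µM effect between the days.

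**Figure D4:**
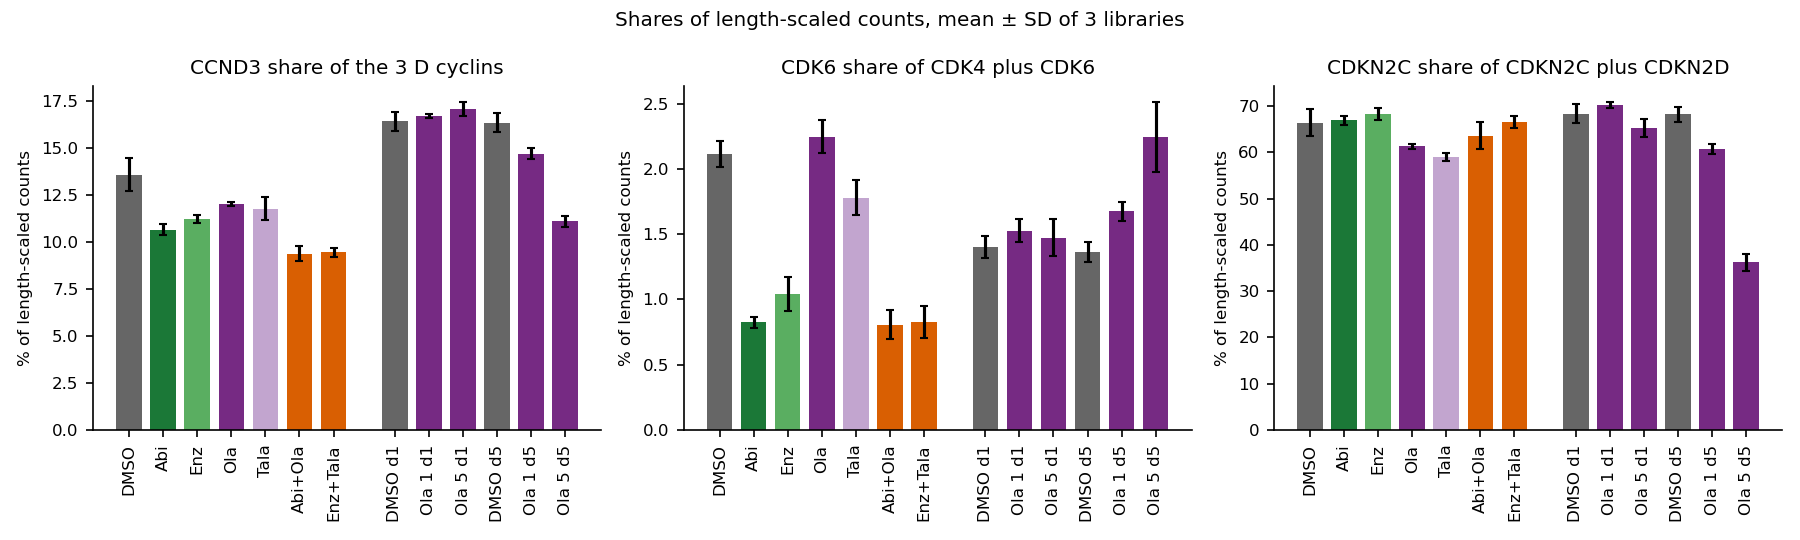
Share of length-scaled counts (y axis, percent) held by CCND3 among the 3 D cyclins, by CDK6 among CDK4 and CDK6, and by CDKN2C among CDKN2C and CDKN2D; bars are means and lines the SD of 3 libraries in each of the 13 groups. The CCND3 share is lowest in the combinations (9.36% and 9.45%), the CDK6 share is between 0.807% and 1.04% in the 4 groups with an antiandrogen, and the CDKN2C share is lowest with olaparib at 5 µM on day 5 (36.2%).

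The balance among the D cyclins shifted with these changes. The share of CCND3 was 13.6% ± 0.86 (SD, n = 3) in the panel's DMSO group, 10.6% ± 0.30 with abiraterone, 11.2% ± 0.21 with enzalutamide and 12% ± 0.12 with olaparib, and 16.3% ± 0.50 with DMSO and 11.1% ± 0.29 with olaparib at 5 µM on day 5 of the time course. With the longest transcript as length the CCND3 share in the panel's DMSO group was 25.1% in place of 13.6%, and it was again lower with abiraterone (20.3%) and enzalutamide (21.2%). The CDK6 share went from 1.36% ± 0.08 with DMSO to 2.24% ± 0.27 with olaparib at 5 µM on day 5, where CDK6 rose and CDK4 fell, or from 0.866% to 1.43% with the longest transcript as length. These shares were not tested.

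Other genes of the pathway were followed through lists written from general knowledge, but with earlier results of these data known. The E2F target list holds 12 genes of DNA replication and proliferation, among them MKI67 and RRM2. On day 5 all 12 passed as lower at 1 µM (median log2 fold change -0.44) and at 5 µM (median -1.75, with MKI67 at -2.90 and RRM2 at -2.54), where 22.9% and 33.9% of all genes were lower. In the panel 11 of 12 were lower with olaparib (median -0.31) and 12 of 12 with talazoparib (median -0.37), against 16% and 15.4% of all genes, while with abiraterone 1 was higher and 2 were lower (median -0.06) and with enzalutamide 1 was higher and 2 were lower (median -0.04), against 27.1% and 26.3% of all genes lower. CDKN2C stood below the list's median in each of the 4 PARPi comparisons just named. On day 1 at 5 µM CDKN2C was at -0.35, and the list held 3 higher and 6 lower genes (median -0.06), where 21.6% of all genes were higher and 23.4% lower.

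**Figure D5:**
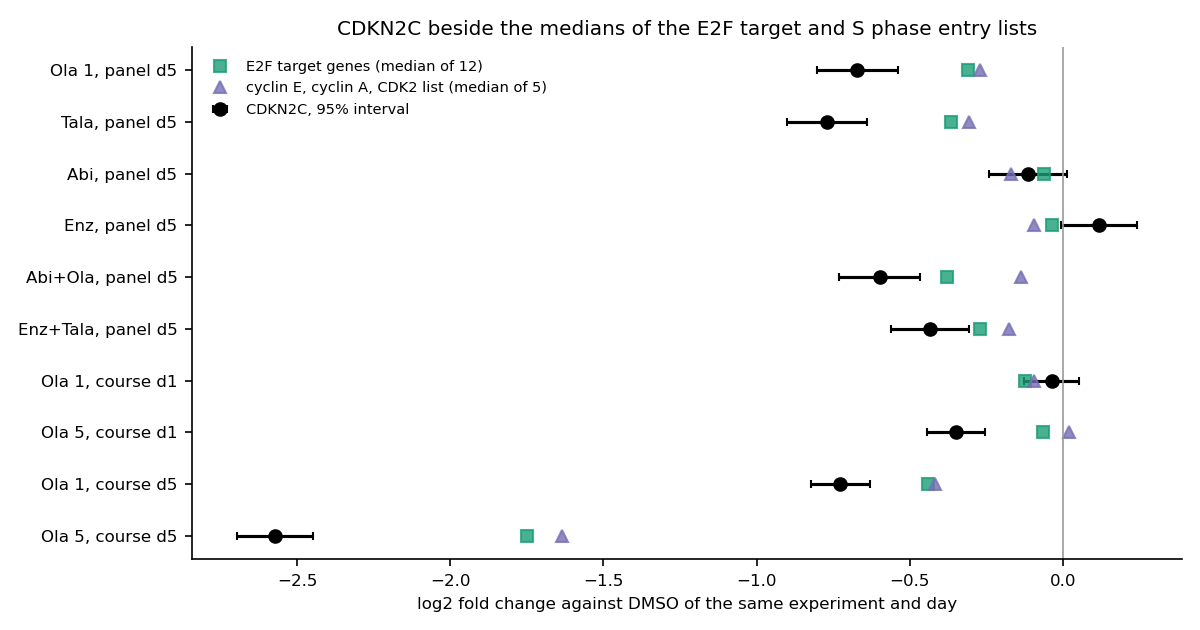
Log2 fold change against DMSO of the same experiment and day (x axis) for CDKN2C with its 95% interval, beside the medians of 12 E2F target genes and of 5 genes of cyclin E, cyclin A and CDK2 function, in 10 comparisons (rows). All 3 lie lowest with olaparib at 5 µM on day 5, at -2.57, -1.75 and -1.63.

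Genes that act beside or after the members are given for day 5 at 5 µM, where 34.4% of all genes were higher and 33.9% lower. The lists are short, and none was tested as a set. Of the E2F factors and their partners 2 of 10 were higher and 7 lower, led by the repressors E2F8 (-2.66) and E2F7 (-2.39), and E2F1 fell to 21.9% ± 0.97 (SD, n = 3) of DMSO. All 5 genes of cyclin E, cyclin A and CDK2 function were lower, with CCNA2 at -3.07 and CCNE2 at -2.39, while CCNE1 was at -0.30. Of the RB relatives, RBL1 (p107) fell by 2.28 on the log2 scale and RBL2 (p130) rose by 0.11. Of 5 DREAM and MuvB subunits, which repress cell cycle genes in resting cells, 4 were lower and 1 higher, led by LIN9 (-1.66) and LIN54 (-1.24), and 2 of the 3 subunits of the CDK-activating kinase were lower, MNAT1 (-0.48) and CCNH (-0.41), with 1 higher.

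The genes that act on CDKN1B and the D cyclins were split, with counts close to those shares of all genes. Of 10 genes of their protein turnover 4 were higher and 4 lower, with CKS1B at -2.26 and SKP2, which marks p27 for destruction, at -1.41. Of 8 upstream regulators 4 were higher and 3 lower, and FOXO3, a known activator of CDKN1B, was at 1.46 while CDKN1B was at -0.48. CDKN1A, the p21 inhibitor and a p53 target, stood at 364% ± 5.20 of DMSO at 1 µM on day 1 and at 1311% ± 17.7 at 5 µM on day 1. CDKN1B, CDKN2C and CDKN2D did not pass the test at 1 µM on day 1. The CDKN2D libraries nevertheless all lay below DMSO there, at 5.49 to 5.62 CPM against 5.90 to 6.70 CPM. CDKN1A rose to 1778% ± 58.8 (SD, n = 3) of DMSO at 5 µM and 551% ± 5.86 at 1 µM on day 5. In the panel it stood at 451% ± 18.4 with olaparib, 394% ± 6.38 with talazoparib, 175% ± 4.24 with abiraterone and 113% ± 3.69 with enzalutamide. With the antiandrogens, RBL2 rose by 0.28 (abiraterone) and 0.21 (enzalutamide) and CCNE2 by 0.39 and 0.38 on the log2 scale, while FOXO1 was lower by 1.13 and 0.62 and FBXO31, of the turnover list, by 0.49 and 0.58.

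For the 3 members with the widest range, the genes of most similar pattern were found by Pearson correlation of log2 CPM over the 13 group means, centred within each experiment. This is a description over groups that share cell line and controls. For CDKN2C these were the mitotic genes KNL1 (r = 0.997) and KIF15 (r = 0.995), out of 4062 genes with a mean of at least 10 counts and a range of at least 0.5 of its own. The CDKN2C correlations rest heavily on olaparib at 5 µM on day 5, at 4.57 CPM against 16.5 CPM in the next lowest group of the time course. For CDK6 the closest genes were the amino acid transporter SLC38A2 (r = 0.976) and the long noncoding RNA NKILA (r = 0.969), out of 8256. For CDKN1C they were weaker, at r = 0.852 for a gene listed by identifier only (ENSG00000204790) and r = 0.850 for GAGE2E, a member of a multicopy family whose reads may be split among copies.

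Some members share their place in the genome with other annotated genes. CCND1 overlaps LTO1, CDK4 overlaps TSPAN31 and MARCHF9, CDK6 overlaps CDK6-AS1, CDKN1B overlaps GPR19 and RB1 overlaps LPAR6 and RCBTB2. The libraries mark strand, but whether the counting used it is not given in the sources used here, so reads of these pairs may not be fully separated. CDKN2C, the member with the widest change, kept its direction and its call under all alternatives in each comparison against DMSO in which it passed.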

How the data were processed

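RNA was sequenced from 39 C4-2B libraries in 2 experiments of 7 and 6 groups, with 3 libraries a group. Trim Galore, STAR (genome GRCh38) and Salmon were used by the authors for trimming, alignment and quantification, per the study's methods, with GENCODE release 45. What the authors deposited are estimated counts per gene, unnormalized and already whole; how they were rounded is not given in the sources used here. Symbols, positions and lengths came from GENCODE release 44, which paired 62666 of 63187 gene identifiers, and promoter sequences from RefSeq (GRCh38.p14).

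In R 4.3.3, edgeR 4.0.16 gave TMM-scaled CPM (counts per 1000000 of the scaled library size), log2 fold changes, p-values, 95% intervals and SE (the absolute log2 fold change over the square root of F). Each experiment was fitted alone, with all its groups in one quasi-likelihood fit without covariates, after filterByExpr by group (18625 and 18502 genes). Benjamini-Hochberg adjustment ran over all genes tested, with a threshold of 0.05. Alternatives were RLE and total count scaling, no filter on low counts, DESeq2 1.42.0 (Wald test, local fit), only the groups compared, a replicate block, and leaving out each library. The scripts were tested on simulated data. Total counts per library lay between 26932205 and 49833473, and replicate libraries differed by more than counting noise (chi-square per degree of freedom 2.18 to 6.03), which library preparation can also add.

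The members and gene lists were chosen with earlier results of these data known, and the promoter motifs after the member values were seen. Named beside the members are CDKN1A, RBL1, RBL2, CCNE1, CCNE2, E2F1, SKP2, up to 2 genes with the largest change in a list and comparison and those of most similar pattern. Western blots and viability were not analysed here, and 1 luminal marker is not reported here.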

Additional observations from a re-analysis of the deposited data

Results flagged for a closer look

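For 8 members, the effect of olaparib against DMSO differed between day 5 and day 1 by an interaction term in edgeR's quasi-likelihood test (adjusted p under 0.05 over all 18502 genes tested). This was 8 of 9 members at 5 µM, where 54.9% of all genes passed, and 4 of 9 at 1 µM, where 29.8% did. At 5 µM the difference, day 5 minus day 1 on the log2 scale, was -2.22 for CDKN2C (SE 0.0814, adjusted p = 2.11e-23), -0.51 for CDKN2D (SE 0.138, adjusted p = 0.0020), -0.36 for CDKN1B (SE 0.0483, adjusted p = 5.47e-08) and -0.49 for RB1 (SE 0.0469, adjusted p = 2.45e-11). It was 0.45 for CCND1 (SE 0.0327, adjusted p = 2.11e-14), -0.27 for CCND3 (SE 0.0468, adjusted p = 6.82e-06), -0.24 for CDK4 (SE 0.0396, adjusted p = 2.04e-06) and 0.42 for CDK6 (SE 0.113, adjusted p = 0.00198). At 1 µM it was -0.69 for CDKN2C (SE 0.0676, adjusted p = 2.08e-10), -0.19 for CDKN1B (SE 0.0470, adjusted p = 0.00215), -0.17 for RB1 (SE 0.0467, adjusted p = 0.00468) and 0.18 for CCND1 (SE 0.0326, adjusted p = 4.37e-05).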

How the results depend on the processing

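No called result changed sign under any alternative. The count of members past the threshold moved by over 1.5 times in 2 comparisons: with talazoparib it went from 7 to 4 without a filter on low counts, and lay between 4 and 7 when single libraries were left out, and with olaparib at 5 µM on day 1 it went from 5 to 3 with total count scaling. The count of all genes past the threshold for olaparib at 1 µM on day 1 went from 2928 to 1932 without day 1 DMSO library 1 and lay between 1932 and 2996 when single libraries were left out. Same-numbered replicates did not deviate together (median correlation -0.0073 in the panel and -0.0029 in the time course, with 3 of 21 and 7 of 18 libraries closest to one of their own number), so the numbers were not taken as pairs. With the replicate block, 170 of 171 member results kept their side of the threshold, and CDK6 passed for enzalutamide plus talazoparib against enzalutamide (-0.28, adjusted p = 0.0423).

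Total count scaling moved the share of higher genes among all those called by over 10 points in 11 of 19 comparisons, and RLE scaling in 0. The share went from 48.7% to 60.0% with abiraterone, from 55.1% to 43.0% with olaparib, from 54.5% to 40.0% with talazoparib, and from 42.2% to 56.3% for the enzalutamide by talazoparib term. It went from 39.8% to 59.9% at 1 µM and from 48.0% to 60.3% at 5 µM on day 1, from 44.6% to 55.0% and from 49.6% to 38.7% for 5 against 1 µM on days 1 and 5, from 52.3% to 37.4% and from 49.6% to 33.2% for the day terms at 1 and 5 µM, and from 45.3% to 57.7% between the DMSO days. For the day term at 5 µM the median of all genes shifted by -0.13. Low counts limit CDKN1C (34 to 106 per library) and CCND2 (0 to 7).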
